A study of Homo sapiens with 9 samples.

Results

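Cholesterol is built from acetyl-CoA through mevalonate, isoprenoid, squalene and sterol intermediates, and 8 enzymes of that route were followed here in HCT116 cells, a human colorectal carcinoma line. The 8 enzymes were HMGCS1, IDI1, FDPS, FDFT1, SQLE, LSS, CYP51A1 and DHCR7. They were taken by gene symbol from a table of 33861 genes in all and were chosen with earlier results of these data known. The levels of 5 of the 8 fell with activin, where 8.41% of all tested genes fell. In cells given HGF after activin, 5 of the 8 rose relative to activin alone, where 7.41% of all tested genes rose, but this count was 0 without activin library 1 and 2 without activin library 3 or activin + HGF library 1. FDPS and LSS fell with activin and stayed below control after HGF. Of all tested genes, 15.0% were lower with activin + HGF than in control, so 2 of 8 is little more than that share.

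RNA sequencing of ribosomal RNA-depleted total RNA gave 9 paired-end libraries, 3 in each of 3 groups. Control cells (NC) were HCT116 cells grown in DMEM with fetal bovine serum. Activin-treated cells received 100 ng/mL activin A, a TGF-β family ligand, for 5 days. Activin + HGF cells received the same activin course and then 20 ng/mL hepatocyte growth factor (HGF), the ligand of the MET receptor, for another 5 days. The culture time of the control cells is not given in the sources used here, so time in culture and treatment cannot be told apart, and there was no group with HGF alone. No group received activin and then 5 days without HGF, so HGF and the 5 further days cannot be told apart either. All libraries came from a single cell line, and nothing in the labels or methods says that the 3 libraries of a group were separate cultures. The p-values therefore set group differences against the spread between these libraries, which may be technical.

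HMGCS1 adds an acetyl unit to make HMG-CoA, the precursor of mevalonate, and mevalonate is then turned into isopentenyl diphosphate, which IDI1 interconverts with its isomer. FDPS joins these isoprene units into farnesyl diphosphate, the branch point to ubiquinone, dolichol and protein prenylation. FDFT1 commits farnesyl diphosphate to squalene, SQLE oxidizes squalene, LSS closes the sterol rings to lanosterol, CYP51A1 removes a methyl group from lanosterol, and DHCR7 performs a late reduction. When membrane cholesterol is low, the SREBP transcription factors (SREBF1 and SREBF2) are carried by SCAP from the endoplasmic reticulum for cleavage and switch on the pathway genes. INSIG1 and INSIG2 hold SCAP back when sterols are plentiful, and INSIG1 is itself a target of the SREBPs.

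Total counts were 57453977 to 77016167 per library. Of the 14757 genes with a mean of at least 1 CPM (the count scaled to the TMM-adjusted library size), activin + HGF library 1 was over 2-fold above both other libraries of its group in 3.28% and below both by that factor in 7.98%, and activin library 2 was below both others in 7.04%. In the other 7 libraries these shares were 0.651% to 1.51%. Scaling factors (TMM, the trimmed mean of M-values) were 1.03 to 1.07 in control, 0.988 to 1.17 in activin and 0.783 to 0.926 in activin + HGF libraries, so changes that involve HGF depended on the scaling. With library totals in place of TMM the median log2 fold change of all genes was 0.10 for activin against control, -0.38 for activin + HGF against activin and -0.30 for activin + HGF against control, compared with 0.02, -0.04 and -0.03. Of 9 colorectal epithelial markers, 6 had at least 1 FPKM (fragments per kilobase of transcript, scaled to library size) and their summed level over the list was 555 to 875 FPKM across libraries, while CDX1, VIL1 and LGALS4 were at or near 0. Summed markers of immune, fibroblast and endothelial cells reached 2.39 to 2.61 FPKM in control, 5.12 to 6.71 in activin and 3.03 to 3.68 in activin + HGF, with COL1A1 alone of the 7 at 1 FPKM or more and PTPRC, CD3E and DCN at or near 0. The 7 hepatocyte markers summed to 0.730 to 0.970, 2.38 to 3.37 and 2.64 to 3.60 FPKM. Most of these sums was SERPINA1, with means of 0.780, 2.66 and 2.54 FPKM, and no other of the 7 reached 1 FPKM. The part of these marker levels in the results was not tested. In bulk RNA, fewer expressing cells and less RNA per cell cannot be told apart.

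The sources used here name no genome build. The gene ends in the table were identical to those of GENCODE 29 on GRCh38 for 4 of the 8 genes and differed by 2, 2, 5 and 1925 bases for the others, so the positions are read as GRCh38. HMGCS1 (ENSG00000112972) lies at chr5:43287470-43313512 on the minus strand, IDI1 (ENSG00000067064) at chr10:1039152-1049170 on the minus strand, and FDPS (ENSG00000160752) at chr1:155308748-155320666 on the plus strand. LSS (ENSG00000160285) lies at chr21:46188141-46228822, CYP51A1 (ENSG00000001630) at chr7:92112153-92134803 and DHCR7 (ENSG00000172893) at chr11:71428193-71452868, all on the minus strand.

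The stretches just upstream of 4 of these genes are shown because the SREBPs are known to act at promoters together with the factor NF-Y, whose core motif is CCAAT. They come from RefSeq on GRCh38.p14, on the strand of the gene, and end at the base before the gene start in the deposited table. Capitals mark CCAAT on either strand (read as ATTGG on the opposite strand) and the sterol regulatory element TCACNCCAC with at most 1 mismatch.
HMGCS1 (chr5:43313513-43313662, minus): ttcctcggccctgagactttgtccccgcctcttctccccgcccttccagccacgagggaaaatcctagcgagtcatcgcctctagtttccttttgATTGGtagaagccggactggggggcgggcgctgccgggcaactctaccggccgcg
IDI1 (chr10:1049171-1049369, minus): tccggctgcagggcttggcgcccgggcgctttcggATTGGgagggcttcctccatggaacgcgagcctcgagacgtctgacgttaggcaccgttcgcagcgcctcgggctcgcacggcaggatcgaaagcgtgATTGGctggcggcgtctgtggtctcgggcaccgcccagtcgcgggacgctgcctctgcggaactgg
FDPS (chr1:155308616-155308747, plus): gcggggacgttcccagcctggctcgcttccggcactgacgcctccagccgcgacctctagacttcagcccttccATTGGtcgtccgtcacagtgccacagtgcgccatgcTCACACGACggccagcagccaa
LSS (chr21:46228823-46229024, minus): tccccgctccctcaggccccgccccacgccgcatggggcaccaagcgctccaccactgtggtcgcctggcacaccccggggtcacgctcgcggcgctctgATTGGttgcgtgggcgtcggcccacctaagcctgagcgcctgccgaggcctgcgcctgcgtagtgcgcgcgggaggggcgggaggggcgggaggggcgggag
All 4 stretches hold CCAAT on the opposite strand, and that of IDI1 holds it at 2 places. In FDPS a stretch with 1 mismatch to the sterol regulatory element, TCACACGAC, follows downstream of the CCAAT match. Over the 250 bases upstream of the nearest RefSeq start, with both strands searched, 6 of the 8 enzymes had a sequence. For CYP51A1 and DHCR7 these bases lay within the gene as placed in the deposited table, so no stretch of theirs is shown. CCAAT was present in 4 of the 6 (HMGCS1, IDI1, FDPS and LSS), compared with 32.0% of 35116 windows of that length. TCACNCCAC was present in 0 of 6 without a mismatch (0.883% of all windows) and in 2 of 6, FDPS and DHCR7, with at most 1 (20.9%). The Sp1 motif GGGCGG was present in 5 of 6 (42.6% of all windows). These matches describe the letters in the windows only.

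The question behind the first comparison was what activin alone does to these cells. HMGCS1, the synthase that makes HMG-CoA, was at 15.7, 10.8 and 14.0 FPKM in control, 9.95, 5.34 and 10.4 in activin and 19.9, 3.43 and 6.42 in activin + HGF libraries. The activin values lay below all control values, and the activin + HGF values ran from below to above both other groups, with library 1 at 4.73 times the mean of libraries 2 and 3 in TMM-scaled CPM. IDI1, the isomerase of isopentenyl diphosphate, was at 15.2, 11.4 and 14.1 FPKM in control, 7.17, 5.01 and 8.0 in activin and 14.1, 9.58 and 10.4 in activin + HGF libraries. Activin values of IDI1 were below all others, and the control and activin + HGF values overlapped.

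FDPS, which makes farnesyl diphosphate, was at 28.9, 31.1 and 31.2 FPKM in control, 12, 15.1 and 13.0 in activin and 10.9, 10.9 and 9.16 in activin + HGF libraries. The 3 groups did not overlap in FPKM and descended in that order. FDFT1 (ENSG00000079459, chr8:11795573-11839304, plus strand), squalene synthase, was at 30.5, 30.8 and 31.6 FPKM in control, 16.6, 14.5 and 12.8 in activin and 42.6, 17.1 and 18.9 in activin + HGF libraries. The activin values of FDFT1 lay below all others. Of the activin + HGF libraries, library 1 lay above and libraries 2 and 3 lay below all control values. SQLE (ENSG00000104549, chr8:124998497-125022283, plus strand), squalene epoxidase, was at 24.0, 20.7 and 24.7 FPKM in control, 14.7, 13.6 and 15.2 in activin and 20.6, 20.3 and 19.6 in activin + HGF libraries. The SQLE groups did not overlap in FPKM, with activin + HGF (20.2 ± 0.549 FPKM, SD, n = 3) between the others. On the TMM scale its activin + HGF libraries (135, 112 and 111 CPM) overlapped the control libraries (112, 101 and 119 CPM).

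LSS, lanosterol synthase, was at 11.9, 11.2 and 12.1 FPKM in control, 6.53, 7.29 and 5.77 in activin and 4.36, 4.78 and 4.85 in activin + HGF libraries. Like FDPS, LSS descended over the 3 groups without overlap in FPKM. On the TMM scale the activin and activin + HGF libraries overlapped for both. CYP51A1, lanosterol demethylase, was at 29.1, 22.8 and 28.6 FPKM in control, 21.4, 18.0 and 23.4 in activin and 36.2, 23.8 and 24.1 in activin + HGF libraries. Its control and activin ranges overlapped in FPKM. DHCR7, the reductase that makes cholesterol from 7-dehydrocholesterol, was at 27.4, 18.9 and 19.1 FPKM in control, 12.6, 16.2 and 9.78 in activin and 27.9, 22.1 and 19.6 in activin + HGF libraries. Activin values of DHCR7 lay below all control and activin + HGF values.

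**Figure D1:**
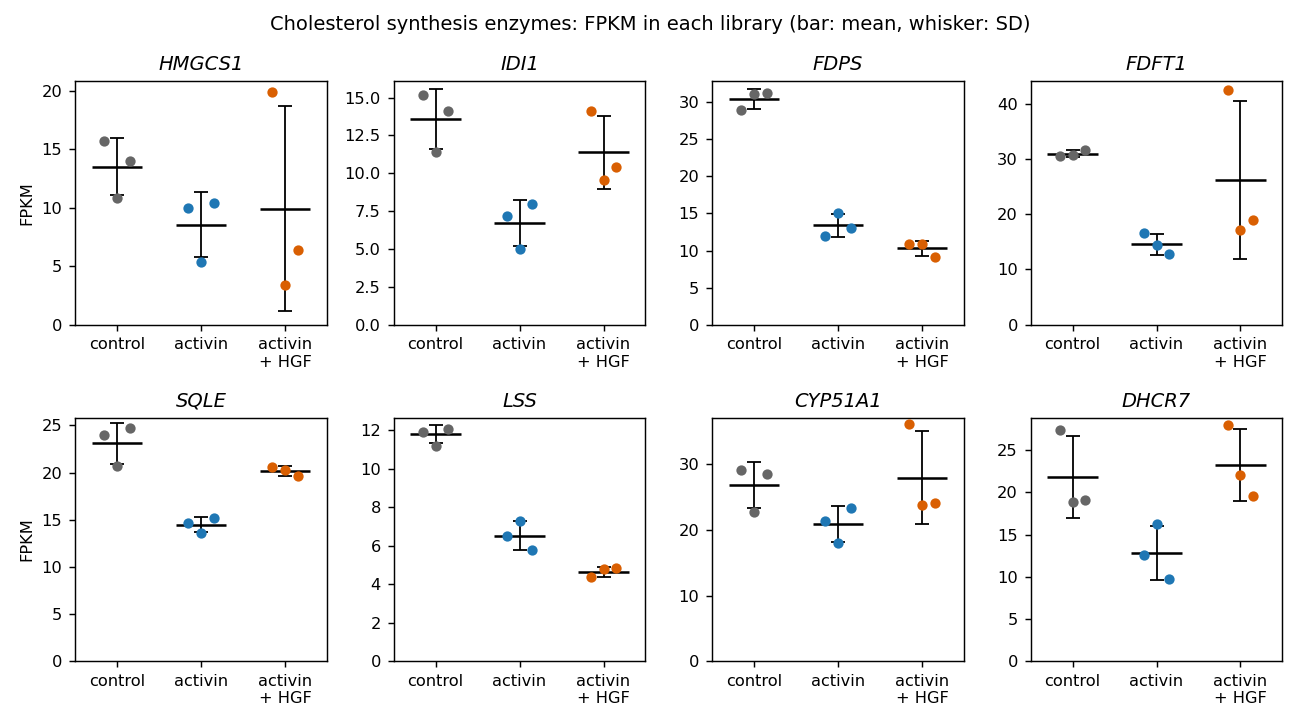
FPKM of the 8 cholesterol synthesis enzymes in each library, 1 panel per gene in pathway order, with points for libraries, bars for the group mean and lines for the SD (n = 3). FDPS and LSS descend from control (means 30.4 and 11.8) to activin + HGF (10.3 and 4.66) in FPKM, with activin and activin + HGF libraries overlapping on the TMM scale, while activin + HGF library 1 stands far above the others in HMGCS1 and FDFT1.

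In activin-treated cells 5 of the 8 enzymes were lower than in control at an adjusted p under 0.05 in edgeR's quasi-likelihood test. Activin and time in culture cannot be told apart in this comparison. FDPS had a log2 fold change of -1.25 (SE 0.196, adjusted p = 0.00206), FDFT1 of -1.16 (SE 0.356, adjusted p = 0.0472) and IDI1 of -1.10 (SE 0.236, adjusted p = 0.00980). LSS had -0.91 (SE 0.173, adjusted p = 0.00550) and SQLE -0.75 (SE 0.153, adjusted p = 0.00770). In fold terms these 5 were lower by 1.69 (SQLE) to 2.37 (FDPS) times. The remaining 3 enzymes did not pass, with values of -0.81 for DHCR7 (SE 0.278, adjusted p = 0.0691), -0.76 for HMGCS1 (SE 0.553, adjusted p = 0.399) and -0.44 for CYP51A1 (SE 0.231, adjusted p = 0.224). The median over the 8 was -0.86, and over all 20988 tested genes it was 0.02. Of all tested genes 8.41% passed as lower, against 5 of 8 enzymes. With a log2 fold change of at least 1 also required, 4.62% of all genes and 3 enzymes (IDI1, FDPS and FDFT1) passed. In CPM the control and activin libraries did not overlap for any of the 8, including those that did not pass. CYP51A1 overlapped in FPKM. The share of all tested genes without such overlap was not computed, so this is a description only. FDPS, SQLE and LSS passed in all 18 alternative settings and IDI1 in 17, while FDFT1 passed in 11. Without control library 1 the count was 3 and without activin + HGF library 1 it was 7, with CYP51A1 and DHCR7 added at adjusted p = 0.0496 and 0.0437.

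The second comparison set activin followed by HGF against activin alone. These groups differ in HGF and in 5 further days, which cannot be told apart here. Relative to activin alone, 5 enzymes rose after HGF. FDFT1 had a log2 fold change of 1.27 (SE 0.357, adjusted p = 0.0426), DHCR7 of 1.23 (SE 0.280, adjusted p = 0.0208) and IDI1 of 1.18 (SE 0.236, adjusted p = 0.0136). SQLE had 0.86 (SE 0.153, adjusted p = 0.00897) and CYP51A1 0.83 (SE 0.232, adjusted p = 0.0414). HMGCS1, FDPS and LSS did not pass, with values of 0.70 (SE 0.553, adjusted p = 0.431), -0.01 (SE 0.193, adjusted p = 0.989) and -0.12 (SE 0.172, adjusted p = 0.688). The median over the 8 was 0.85, and over all tested genes it was -0.04. Among all tested genes 7.41% passed as higher and 5.45% as lower, and with a log2 fold change of at least 1 also required 3.87% passed as higher, as did 3 enzymes (IDI1, FDFT1 and DHCR7). FDPS and LSS overlapped between these groups in CPM but lay lower without overlap in FPKM. On log2(FPKM + 0.1) in limma, LSS had -0.47 (adjusted p = 0.0482) and FDPS -0.37 (adjusted p = 0.0891).

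The calls of this comparison were sensitive to the libraries used. Without activin library 1, 0 of the 8 passed in edgeR, with 5 at an unadjusted p under 0.05, and the same counts came from a fit of only the activin and activin + HGF groups. Their log2 fold changes without activin library 1 stayed at 0.74 for CYP51A1 to 1.25 for FDFT1. Without activin + HGF library 1 the count was 2, IDI1 at 0.90 (adjusted p = 0.0258) and SQLE at 0.77 (adjusted p = 0.0173), FDFT1 was at 0.60 (adjusted p = 0.0565), CYP51A1 at 0.50 (adjusted p = 0.0787), and HMGCS1 turned to -0.46 (adjusted p = 0.396). Leaving out activin library 3 also gave 2. DESeq2 on all 9 libraries gave 5.

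**Figure D2:**
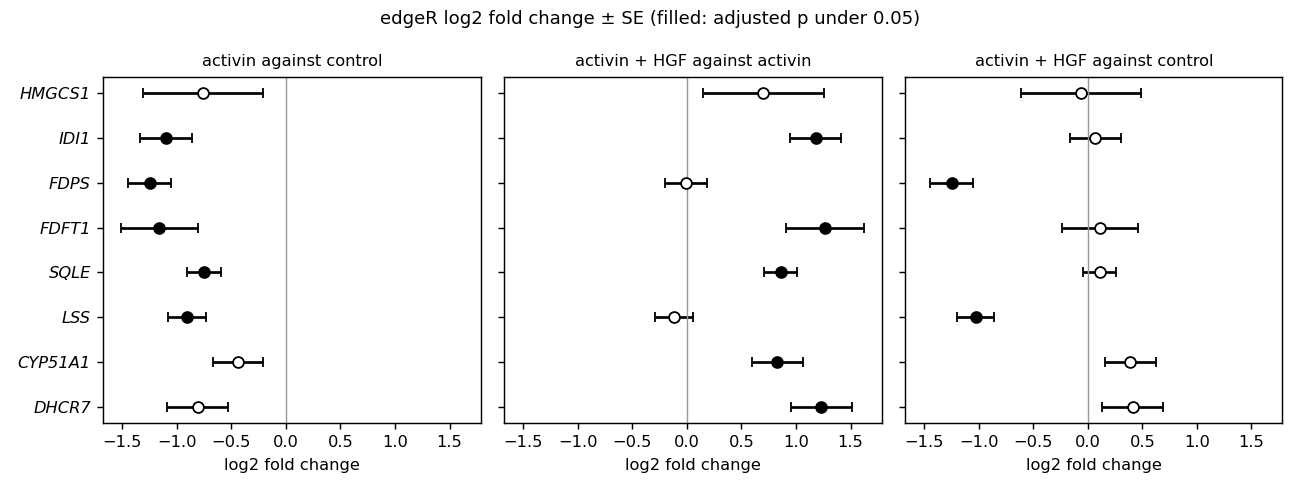
edgeR log2 fold changes of the 8 enzymes (points) with their approximate SE (bars) in the 3 comparisons, filled where the adjusted p is under 0.05. Activin against control is below 0 for all 8, from -1.25 to -0.44, and activin + HGF against control is near 0 for most but at -1.25 for FDPS and -1.03 for LSS.

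The third comparison set activin followed by HGF against control. FDPS, at a log2 fold change of -1.25 (SE 0.196, adjusted p = 0.00114), and LSS, at -1.03 (SE 0.174, adjusted p = 0.00170), were lower by 2.38 and 2.04 times, and the other 6 did not pass. Their values were 0.41 for DHCR7 (SE 0.276, adjusted p = 0.285), 0.39 for CYP51A1 (SE 0.231, adjusted p = 0.227), 0.11 for FDFT1 (SE 0.351, adjusted p = 0.837), 0.11 for SQLE (SE 0.152, adjusted p = 0.625), 0.07 for IDI1 (SE 0.233, adjusted p = 0.840) and -0.06 for HMGCS1 (SE 0.550, adjusted p = 0.952). The median over the 8 was 0.09, and over all tested genes it was -0.03. Among all tested genes 15.0% passed as lower and 16.4% as higher, and with a log2 fold change of at least 1 also required 10.2% passed as lower, as did FDPS and LSS. At this background 2 of 8 is little more than the share of all genes. FDPS and LSS passed in all 18 alternatives. Without activin + HGF library 1, HMGCS1 at -1.22 (adjusted p = 0.0236) and FDFT1 at -0.56 (adjusted p = 0.0392) also fell. The 3 comparisons share libraries, so their values for an enzyme are not independent of each other.

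FDPS and LSS were also compared with each of the other 6 enzymes as FPKM ratios within a library, in which the scaling cancels. Taking ratios was decided after the values were seen. FDPS and LSS were the enzymes that stayed below control after HGF, so low ratios follow in part from that choice. The 12 ratios share these genes and the same 6 enzymes, so they are not independent of each other. They are given as a description only. In 10 of the 12 ratios all 3 activin + HGF libraries lay below the other 6 libraries. FDPS to SQLE was 1.20, 1.5 and 1.27 in control, 0.819, 1.12 and 0.856 in activin and 0.528, 0.535 and 0.469 in activin + HGF libraries. LSS to SQLE was 0.496, 0.544 and 0.492 in control, 0.445, 0.538 and 0.380 in activin and 0.212, 0.235 and 0.248 in activin + HGF libraries. The ratios to SQLE show the pattern of the 10, library 1 included. The exceptions were the ratios to HMGCS1. FDPS to HMGCS1 was 1.84, 2.87 and 2.23 in control, 1.21, 2.84 and 1.25 in activin and 0.546, 3.17 and 1.43 in activin + HGF libraries. LSS to HMGCS1 was 0.759, 1.04 and 0.868, then 0.656, 1.37 and 0.557, then 0.219, 1.39 and 0.755. In both of these, activin + HGF library 1 was the lowest and library 2 the highest of all libraries.

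**Figure D3:**
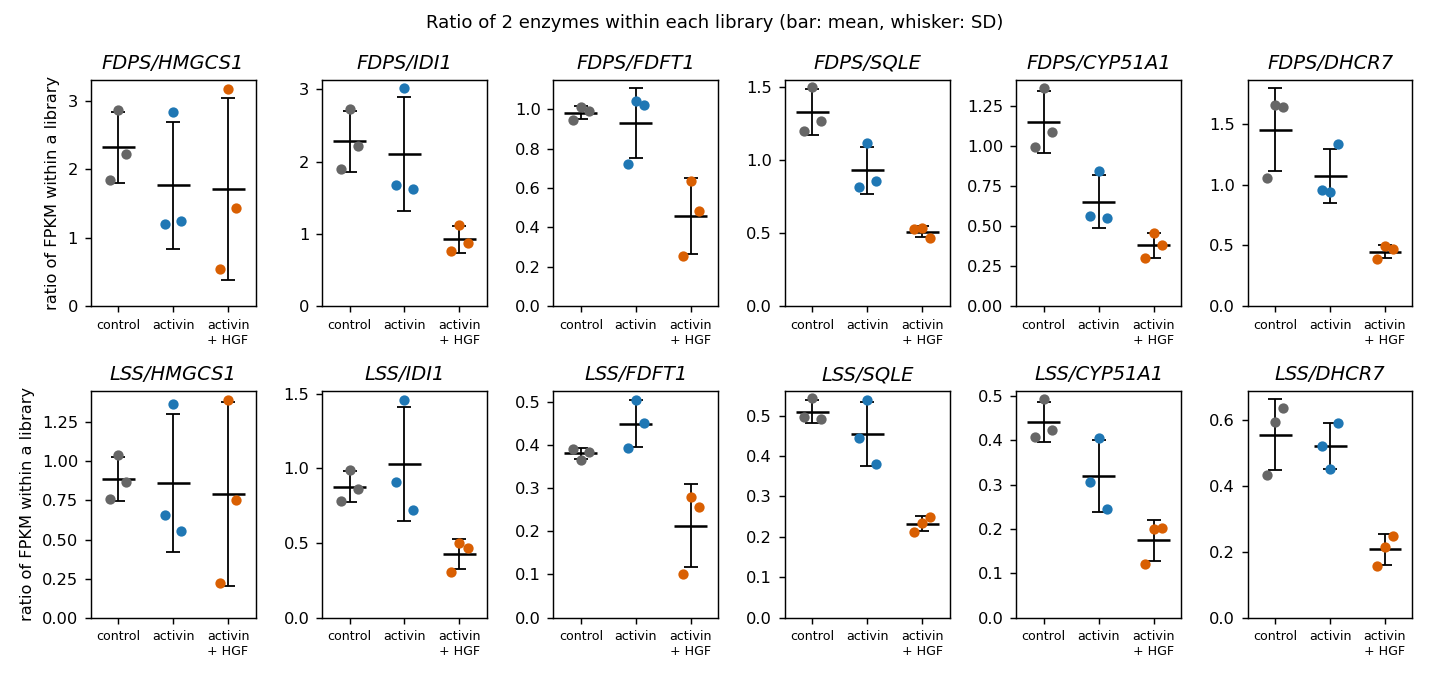
FPKM ratios of FDPS (upper row) and LSS (lower row) to each of the other 6 enzymes within a library (points), with bars for the group mean and whiskers for the SD (n = 3). The activin + HGF points lie below all others in 10 of 12 panels and overlap the other groups in the 2 panels with HMGCS1. The panels share genes, and taking ratios was decided after the values were seen.

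The order of the levels per transcript length differed between groups. In control cells FDFT1 (31.0 ± 0.559 FPKM, SD, n = 3) and FDPS (30.4 ± 1.32) led, followed by CYP51A1 (26.9 ± 3.52), SQLE (23.1 ± 2.14) and DHCR7 (21.8 ± 4.87), and a gap without overlap separated these from IDI1 (13.6 ± 1.97), HMGCS1 (13.5 ± 2.45) and LSS (11.8 ± 0.466). Neighbours within each of these sets overlapped between libraries. In activin-treated cells CYP51A1 (20.9 ± 2.74) stood above the next enzyme, FDFT1 (14.6 ± 1.92), without overlap, and LSS (6.53 ± 0.760) was last. After HGF, FDPS (10.3 ± 0.993) had moved into the lower set with IDI1 (11.4 ± 2.42) and HMGCS1 (9.93 ± 8.79), and LSS (4.66 ± 0.265) was again lowest. The 8 enzymes summed to 183, 158 and 175 FPKM in control, 101, 95 and 98.3 in activin and 177, 112 and 113 in activin + HGF libraries. Activin libraries had the lowest sums, and activin + HGF library 1 alone of its group reached the control range.

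A list of 12 other genes of the route, also chosen with earlier results of these data known, gave a partly similar picture. With activin, 3 fell and 9 did not pass (median log2 fold change -0.51), where 8.41% of all tested genes fell. ACAT2, the cytosolic thiolase that starts the route, was at 23.2, 18.2 and 21.8 FPKM in control, 5.97, 6.18 and 4.63 in activin and 8.31, 6.90 and 6.25 in activin + HGF libraries. It fell by 1.98 on the log2 scale (SE 0.232, adjusted p = 0.000421), a larger estimate than for any of the 8 enzymes, and was still at -1.24 (SE 0.227, adjusted p = 0.00268) after HGF against control. NSDHL, a C4 decarboxylase, had -1.09 (SE 0.224, adjusted p = 0.00820), and MVK, mevalonate kinase, -0.77 (SE 0.198, adjusted p = 0.0227). MVK did not pass when any 1 control library or activin library 1 or 3 was left out.

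After HGF relative to activin, 2 of the 12 rose and 10 did not pass (median 0.57), where 7.41% of all tested genes rose. MSMO1, the C4 methyl oxidase acting on sterols after CYP51A1, was at 19.9, 16.3 and 20.2 FPKM in control, 24.9, 17.1 and 24.4 in activin and 139, 46.9 and 40.0 in activin + HGF libraries. MSMO1 was above all other libraries in each activin + HGF library, library 1 by the most. Its log2 fold change was 2.23 (SE 0.460, adjusted p = 0.0147) against activin and 2.37 (SE 0.462, adjusted p = 0.00367) against control, and without library 1 it was 1.29 (adjusted p = 0.00710) and 1.43 (adjusted p = 0.000546). Without activin library 1 or 3 the call against activin was lost (adjusted p = 0.0649 and 0.0591). MVD, the mevalonate diphosphate decarboxylase, rose by a log2 fold change of 1.26 (SE 0.307, adjusted p = 0.0264), but without activin + HGF library 1 this was 0.84 (adjusted p = 0.0592). MVD also lost the call without activin library 1 or 3 and without control library 1 or 2. Without activin library 1 or 3 the list had 0 genes that passed in edgeR (3 and 2 at an unadjusted p under 0.05), and without activin library 2 it had 8. Against control, MSMO1 was higher, and ACAT2 and LBR, a C14 sterol reductase of the inner nuclear membrane, were lower (LBR -0.77, SE 0.225, adjusted p = 0.0247, and -0.59 at adjusted p = 0.0615 without activin + HGF library 1), with a list median of 0.03. The other 9 did not pass in that comparison, and 1 higher and 2 lower of 12 are near the shares of all tested genes (16.4% and 15.0%). Without activin library 2 the list had 7 that passed.

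**Figure D4:**
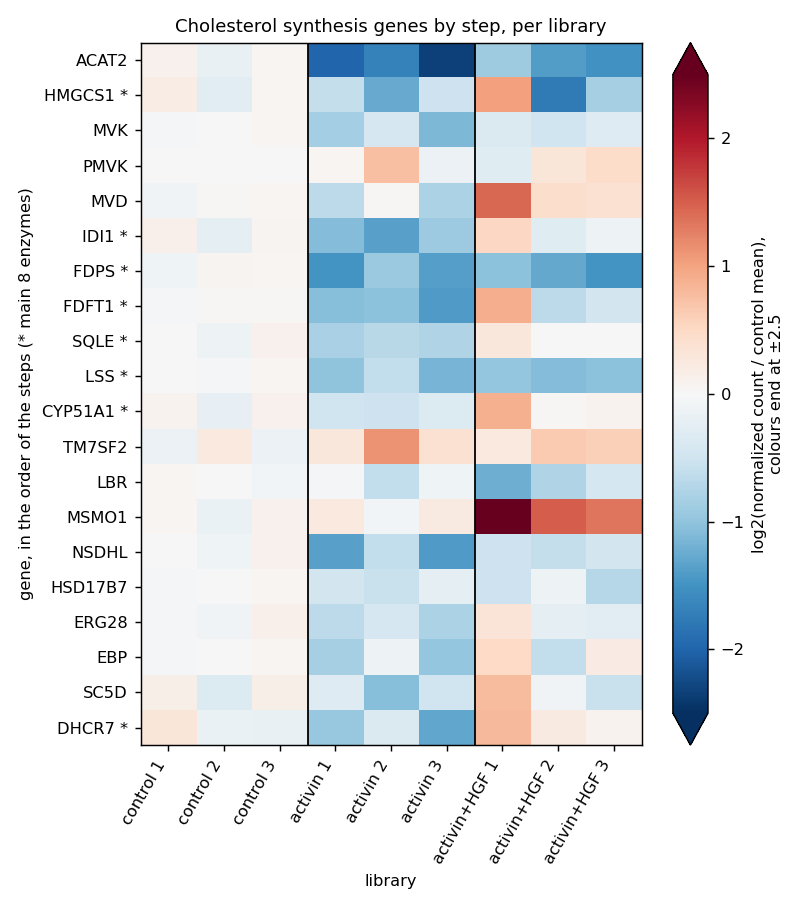
log2 of the normalized count over the control mean, by colour, for 20 genes of the route (rows, in the order of the steps, with the 8 main enzymes starred) in the 9 libraries (columns), with colours ending at ±2.5. ACAT2 is darkest blue in the activin libraries (log2 fold change -1.98), and MSMO1 is red in all 3 activin + HGF libraries, most in library 1.

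The 13 genes of sterol sensing and its regulation were a list chosen with the same knowledge. INSIG1 was at 8.94, 8.74 and 10.8 FPKM in control, 9.64, 10.6 and 15.7 in activin and 179, 54.1 and 47.5 in activin + HGF libraries. All 3 activin + HGF libraries were more than 3 times the highest other value. Its log2 fold change was 3.42 (SE 0.528, adjusted p = 0.00589) against activin and 3.67 (SE 0.534, adjusted p = 0.000759) against control, and it passed in all 18 alternatives of both comparisons. Without activin + HGF library 1 it was 2.39 (adjusted p = 0.00181) and 2.65 (adjusted p = 0.000113). INSIG2, at 1.32, 1.27 and 3.59 FPKM in control, 8.60, 5.63 and 8.36 in activin and 3.86, 2.80 and 3.83 in activin + HGF libraries, rose with activin by a log2 fold change of 1.77 (SE 0.390, adjusted p = 0.0112). Without control library 3 that was 2.44 (adjusted p = 0.00155). INSIG2 did not pass with activin + HGF, at -0.70 against activin (SE 0.380, adjusted p = 0.248) and 1.07 against control (SE 0.384, adjusted p = 0.0556).

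SREBF2, the SREBP best known for cholesterol genes, was at 28.4, 27.3 and 28.3 FPKM in control, 36.6, 46.3 and 34.0 in activin and 40.8, 40.3 and 35.8 in activin + HGF libraries. Its log2 fold change with activin was 0.42 (SE 0.198, adjusted p = 0.182), with all activin libraries above all control libraries, and it rose with activin + HGF against control by 0.78 (SE 0.199, adjusted p = 0.0136), a call lost without control library 1 (0.73, adjusted p = 0.0510) or 3 (0.79, adjusted p = 0.0504). SREBF1, better known for fatty acid genes, was higher in that comparison by 0.71 (SE 0.205, adjusted p = 0.0248) but not with library totals (0.45, adjusted p = 0.0862), and its call was lost in 7 of 18 alternatives. SCAP did not pass in any of the 3 comparisons, with log2 fold changes of -0.03, 0.02 and -0.01. TMEM97, a sterol-responsive endoplasmic reticulum protein, fell with activin (-1.89, SE 0.288, adjusted p = 0.00173) and was at -1.90 (SE 0.288, adjusted p = 0.000969) with activin + HGF against control. RNF139, a ubiquitin ligase of that membrane, was higher with activin + HGF against control (0.76, SE 0.239, adjusted p = 0.0338), in 8 of 18 alternatives and not without activin + HGF library 1 (0.40, adjusted p = 0.0698). The calls of TMEM97 held in all 18 in both comparisons. Of the 13 listed genes, 1 rose and 1 fell with activin, 1 rose with HGF relative to activin, and 4 rose and 1 fell with activin + HGF against control. Over all tested genes 9.58% rose and 8.41% fell with activin, 7.41% rose after HGF relative to activin, and 16.4% rose and 15.0% fell with activin + HGF against control, so apart from the 4 that rose these counts are near or below the background. The remainder did not pass, and the list medians were 0.07, 0.03 and 0.25.

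**Figure D5:**
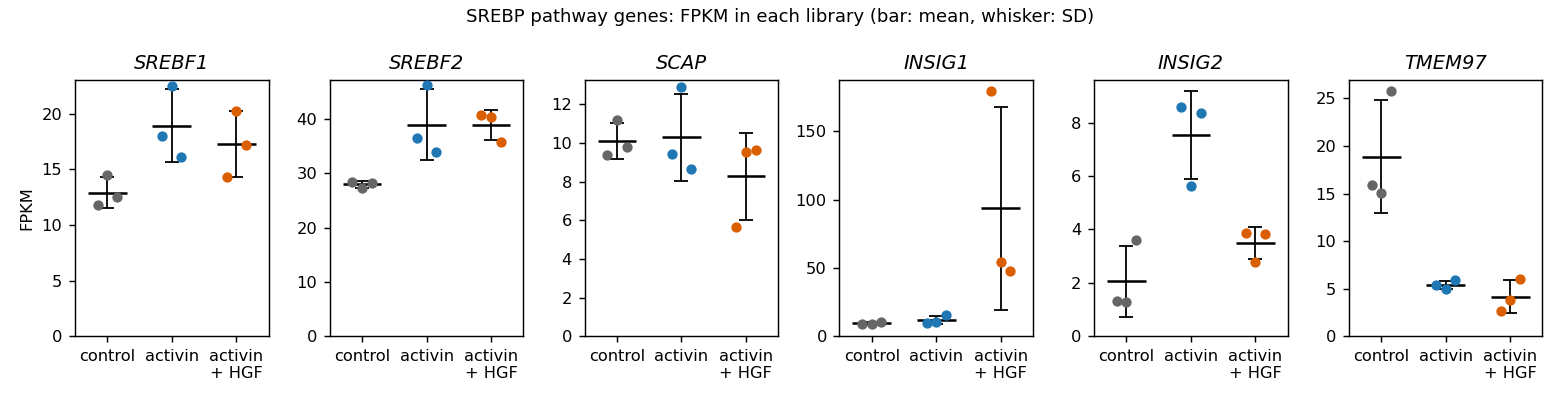
FPKM of SREBF1, SREBF2, SCAP, INSIG1, INSIG2 and TMEM97 in each library (points), with bars for the group mean and whiskers for the SD (n = 3). INSIG1 is at 47.5 FPKM or more in the 3 activin + HGF libraries and at 15.7 or less in the other 6.

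Of 12 genes of the isoprenoid branches, 1 fell with activin, 1 rose after HGF relative to activin and 2 fell with activin + HGF against control. Over all tested genes these shares were 8.41%, 7.41% and 15.0%, so the counts are near the background (medians -0.16, -0.23 and -0.28 in the 3 comparisons). PDSS1, which makes the ubiquinone side chain, fell with activin (-1.52, SE 0.267, adjusted p = 0.00374) and with activin + HGF against control (-1.87, SE 0.271, adjusted p = 0.000747). FNTB, the beta subunit of farnesyltransferase, fell in the latter comparison (-0.73, SE 0.206, adjusted p = 0.0212), and PDSS2 rose after HGF relative to activin (0.72, SE 0.191, adjusted p = 0.0346). Of 11 fatty acid synthesis genes, 3 fell with activin (8.41% of all tested genes), namely SCD, the stearoyl-CoA desaturase (-1.53, SE 0.235, adjusted p = 0.00180), ACLY, which supplies acetyl-CoA from citrate (-0.91, SE 0.180, adjusted p = 0.00683), and ACACA, acetyl-CoA carboxylase (-0.86, SE 0.185, adjusted p = 0.0103). With activin + HGF against control 6 of the 11 fell, where 15.0% of all tested genes fell, and 2 rose, where 16.4% rose, so the second count is near the background (median -0.55). Relative to activin, 2 of the 11 rose and 1 fell, where 7.41% of all tested genes rose and 5.45% fell. In that comparison ELOVL5, a fatty acid elongase, rose by 1.01 (SE 0.202, adjusted p = 0.0135) and ME1, a source of NADPH, by 0.55 (SE 0.142, adjusted p = 0.0315), and FADS2, a desaturase, fell by 0.97 (SE 0.194, adjusted p = 0.0134). ACLY makes the acetyl-CoA used by the cholesterol route as well as by fatty acid synthesis. The calls of PDSS1, of SCD and ACLY with activin and of FADS2 relative to activin held in all 18 alternatives. ELOVL5 relative to activin passed in 13, without activin library 1 not, and PDSS2 and ME1 relative to activin in 5 each. FNTB lost its call without control library 2, and ACACA with activin lost its call without control library 1.

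Of 13 genes of cholesterol export, storage and uptake, 1 rose with activin, 1 rose after HGF relative to activin and 3 rose with activin + HGF against control, compared with 9.58%, 7.41% and 16.4% of all tested genes, so these counts are near the background. The medians were 0.26, -0.00 and -0.01. NPC1, which moves cholesterol out of lysosomes, was at 5.58, 5.39 and 5.05 FPKM in control, 12.8, 10.8 and 11.2 in activin and 7.57, 9.30 and 10.1 in activin + HGF libraries, a change of 1.04 with activin (SE 0.146, adjusted p = 0.00112) and of 1.04 with activin + HGF (SE 0.146, adjusted p = 0.000637). NPC2, its soluble partner, rose after HGF relative to activin by 0.99 (SE 0.192, adjusted p = 0.0125). MYLIP, a ubiquitin ligase that acts on lipoprotein receptors, and LIPA, the lysosomal acid lipase, rose with activin + HGF against control by 1.54 (SE 0.397, adjusted p = 0.0148) and 0.50 (SE 0.148, adjusted p = 0.0276), MYLIP at 13.6, 4.92 and 5.31 FPKM in these libraries and at 0.77 (adjusted p = 0.0129) without activin + HGF library 1. Of 9 oxysterol and bile acid genes, 7 were tested. With activin 1 fell, after HGF relative to activin 1 rose and 1 fell, and with activin + HGF against control 1 rose and 1 fell. Over all tested genes these shares were 8.41%, 7.41%, 5.45%, 16.4% and 15.0%, and each count here is a single gene. HSD3B7, a steroid dehydrogenase of bile acid synthesis, fell with activin (-0.88, SE 0.239, adjusted p = 0.0286) and rose after HGF (0.91, SE 0.239, adjusted p = 0.0347), and OSBP, an oxysterol-binding lipid carrier, was higher with activin + HGF against control (0.58, SE 0.147, adjusted p = 0.0132). NPC1 passed in all 18 alternatives of both comparisons, NPC2 in 15 (not without activin library 1 or 3) and MYLIP in 16 (not without control library 2 or 3). LIPA passed in 10, OSBP in 12, and HSD3B7 in 12 with activin and in 5 after HGF, each failing without any 1 control library. GPR183, the oxysterol receptor, had 0, 0 and 2 counts in activin + HGF libraries and 12 to 35 in the others. At these low counts it passed as lower with activin + HGF, against activin (-4.93, SE 1.22, adjusted p = 0.0278) and against control (-4.73, SE 1.21, adjusted p = 0.0141). CH25H, which makes 25-hydroxycholesterol, was not tested, with 4, 15 and 0 counts in activin libraries and 0 in all others.

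Likeness of profile was described over the 9 libraries, which share groups and scaling, by Pearson's r between log2 CPM profiles, with the enzymes' profiles standardized before averaging. Each enzyme was compared with the mean of the other 7. FDFT1 (0.95), IDI1 (0.90) and SQLE (0.86) followed the others most closely, CYP51A1 (0.76), DHCR7 (0.75) and HMGCS1 (0.63) came next, and FDPS (0.54) and LSS (0.44) followed them least. Of 12004 genes ranked, RGS2 (r = 0.982), SUCLG2 (0.981), UFD1 (0.978), SRRT (0.973) and HSP90AB3P (0.970) had profiles most like the mean profile of the 8 enzymes. RGS2 was at 13.7 ± 1.31, 4.31 ± 0.549 and 10.8 ± 6.82 FPKM (SD, n = 3) in control, activin and activin + HGF libraries. HSP90AB3P is a pseudogene whose reads can be shared with HSP90AB1, so its value is uncertain.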

How the data were processed

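The authors deposited a single table of 33861 genes with whole-number counts per gene, not normalized, and FPKM values normalized by the authors to gene length and library size, in 9 libraries. All 18 value columns were used. The submitters' processing notes name cutadapt 1.9, HISAT2 2.0.4 and StringTie 1.3.4d, and the genome build, strandedness and counting settings are not given in the sources used here. Of counts from 1 to 40, 35.0% were multiples of 4, compared with 25% for an even spread, so the counts may not be single reads. Groups followed the library titles. The 8 enzymes and all gene lists were chosen with earlier results of these data known.

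The main test was edgeR 4.0.16 (glmQLFit and glmQLFTest after filterByExpr and TMM scaling, R 4.3.3). All 9 libraries entered 1 fit of group means, without a block. Benjamini-Hochberg adjustment covered the 20988 tested genes, and a gene passed at an adjusted p under 0.05. The SE is the absolute log2 fold change over the square root of F. With 3 libraries per group the number of libraries limits the precision, and an exact permutation test of 3 against 3 cannot go below 0.1. The alternatives were other scalings, no filter, counts divided by 4, a block for the replicate number, a fit of the compared groups alone, limma 3.58.1 on log2(FPKM + 0.1) and log2(FPKM + 1), DESeq2 1.42.0 and leaving out each library. The fit was tested on simulated data first. Tables were handled with pandas 2.3.3 and numpy 2.4.6 in Python 3.11.15, and figures were drawn with matplotlib 3.10.9.

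Named genes were the 8 enzymes, the other genes of the route, SREBF1, SREBF2, SCAP, INSIG1, INSIG2 and CH25H, up to 4 genes of each further list with the largest change among those that passed, and the 5 genes of most similar profile. ACACA, ME1 and RNF139 fall outside this rule and were named, after their values were seen, to complete small counts. Promoters were to be shown for 4 enzymes at most, those with an exact sterol regulatory element first and then in route order. Only the 4 shown had RefSeq bases before the gene start in the deposited table, and none had an exact element. Some genes of the pathway are not reported here and are not counted in its lists.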

Additional observations from a re-analysis of the deposited data

How the results depend on the processing

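Over the 8 enzymes, the 3 comparisons and 18 alternatives, 358 log2 fold changes kept their direction and side of the threshold. Another 41 kept the direction but no longer passed, 9 kept the direction and passed in addition, and 24 changed sign. Among the sign changes, FDFT1 against control also passed without activin + HGF library 1 (-0.56, adjusted p = 0.0392 in edgeR). The cause of these changes was not tested. For activin against control the count of 5 enzymes that passed ranged from 3 to 7 when 1 library was left out, and requiring a log2 fold change of at least 1 gave 3. For activin + HGF against activin the count of 5 became 3 with library totals, 3 with the replicate block, 0 in the fit of only these groups, 3 with limma on log2(FPKM + 1) and 3 with the fold requirement, and ranged from 0 to 5 when 1 library was left out. The other genes of the route there went from 2 to 1 in the fit of only these groups and ranged from 0 to 8 with a library left out. For activin + HGF against control the count of 2 ranged from 2 to 4, and the 3 other genes became 6 with library totals, 5 in the fit of only these groups, 6 in both limma fits and 2 to 7 with a library left out.

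Signs changed only for values that were not called in the full fit. Against activin, HMGCS1 was at -0.10 and -0.07 in the limma fits and ranged from -0.46 to 1.13 with a library left out, FDPS was at 0.01 with the replicate block and from -0.18 to 0.18, and LSS from -0.31 to 0.05. Against control, HMGCS1 ranged from -1.22 to 0.37 with a library left out, IDI1 was at -0.22 with library totals, -0.26 and -0.24 in limma and from -0.21 to 0.23, FDFT1 was at -0.21, -0.37, -0.35 and, with the block, -0.03, and from -0.56 to 0.38, and SQLE was at -0.17, -0.19 and -0.18. Libraries of equal replicate number showed no clear pairing, with correlations of their deviations from the group means between -0.0606 and 0.0882. These values cannot exclude that the libraries were handled in sets. The block moved the number of genes that passed from 3776 to 3362, from 2698 to 2044 and from 6587 to 6088 in the 3 comparisons.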
